A study of Homo sapiens with 12 samples.

Results

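Of 10 mucin genes followed in BT474 cells under lapatinib, MUC6 had the most mRNA before treatment and was down to a few reads in the long-term resistant cells. Mucins are large glycoproteins whose repeat-rich stretches of serine and threonine carry dense O-linked sugars. The secreted, gel-forming mucins are chained into mucus, while the membrane-bound mucins stand on the apical cell surface and can signal through their short cytoplasmic tails. In the breast, MUC1 on the luminal surface is the best known, and a membrane mucin, MUC4, is known as a binding partner of HER2. The 10 genes, of 26485 in the table, were the gel-forming MUC6, MUC5B, MUC5AC and MUC2, and the membrane-bound MUC1, MUC20, MUC4, MUC13, MUC15 and MUC16. They were taken by gene symbol from a list chosen by how they behaved in these same 12 libraries, so their levels and changes are given as a description and carry no p-value.

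BT474 is an established HER2-positive breast cancer cell line of wild-type genotype, and lapatinib inhibits the kinases of HER2 and EGFR. The 4 groups of 3 libraries each were Control at day 0, drug-tolerant persisters (DTP) at day 9, expanded persisters (DTEP, also drug-tolerant) from month 6, and long-term resistant cells (LR, labelled Resistant) from month 9, the last 3 grown with lapatinib at 1 µM renewed every 3 days. The Control libraries carry the same treatment label and were read as untreated because their titles give Control and day 0. The study calls the libraries of a condition technical replicates, while a figure legend gives 3 parallel cell plates. An SD, a standard error (SE) or a p-value here thus covers only the spread between libraries (n = 3 per group). The labels name BT474 for every group, and whether the DTEP and LR cells are BT474 throughout was not checked here.

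Values are normalised read counts, that is reads scaled by the authors to a fixed library total with a TMM factor. Depth was 16383363 to 25030482 reads per library, and 3 reads, the most that a count of 0 allows, were worth 0.124 to 0.173. Correlations of log2 values between libraries of 1 group were 0.997 to 0.998 in Control and 0.934 to 0.982 in DTEP. DTEP replicate 3 stood closer to the LR libraries (r of 0.971 to 0.986) than to the other DTEP libraries (0.934 to 0.962). DTEP values of MUC6, MUC16 and MUC20 are therefore also given without it, while shares and the levels of other genes include it. The 9 luminal epithelial markers examined were read in every group, and their summed level was 10836 to 11602 for Control, 13536 to 16160 for DTP, 4445 to 6498 for DTEP and 4223 to 5780 for LR. The 9 did not move as one. In LR against Control CDH1, which encodes E-cadherin, was called lower, that is with a limma adjusted p under 0.05 and a log2 change past 2 (1125 ± 27.2 to 75.1 ± 15.3) and GATA3, a luminal transcription factor, was called higher (190 ± 7.64 to 1251 ± 331) (SD, n = 3). By limma adjusted p under 0.05 alone, 6 of the 9 were lower and 1 higher, and EPCAM (log2 change 0.25) and ELF3 (0.23) were neither. Here and below, the share of all genes by adjusted or unadjusted p alone is not given, so nothing is read from such counts. The 9 stromal and immune markers summed to 62.7 to 73.5 for Control, 55.6 to 67.9 for DTP, 84.7 to 126 for DTEP and 99.9 to 132 for LR. COL1A1, a collagen gene, held most of this, with 55.3 ± 5.63 in Control and 111 ± 17.2 in LR (SD, n = 3), higher by 0.98 on the log2 scale (SE 0.17, limma adjusted p = 0.000322). The sum of the other 8 went the other way, at 10.2 to 11.8 for Control, 7.54 to 9.43 for DTP, 2.69 to 5.27 for DTEP and 1.502 to 1.77 for LR. Among these 8, the T cell gene CD3E had 0 reads in every library and the leukocyte gene PTPRC at most 2. The tested genes among them were VWF, CD68 and LYZ, which did not move as one. By DTP their log2 changes from Control were -1.56 (VWF, SE 0.14), 0.32 (CD68, SE 0.20) and 1.18 (LYZ, SE 0.25). By DTEP they were -2.92, 0.50 and -0.15, and by LR -3.02, -0.33 and -0.85, in the same order. Only VWF was called, lower in DTEP and in LR. The part of these marker shifts in the mucin changes was not tested, and in bulk RNA fewer cells expressing a gene and less RNA per cell cannot be told apart.

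MUC6, the gastric-type gel-forming mucin, was the most abundant of the 10 before treatment. In Control its 3 libraries held 781, 776 and 809 normalised read counts. In DTP they held 151, 135 and 154, in DTEP 3.92, 2.51 and 0.617, and in LR 0.0422, 0.0553 and 0.194. The 4 groups formed separate steps that never overlapped, and the LR values rested on 1, 1 and 4 reads. MUC6 was 5.38-fold lower in DTP than in Control (log2 change -2.42, SE 0.30) and a further 62.4-fold lower in DTEP than in DTP (-5.60, SE 0.30). From DTEP to LR it was 24.2-fold lower, with a counting interval of 11.1 to 66.0, but its log2 change on the scale with 1 added, -1.47, stayed inside the cut-off. Over the whole course LR stood 8124-fold below Control, with a counting interval of 3732 to 22137. These folds turn on single libraries of few reads. Without LR replicate 3, which holds 4 of the 6 LR reads, LR was 48.2-fold below DTEP and 16171-fold below Control. Without DTEP replicate 1, the highest of its group, DTEP was 93.7-fold below DTP and LR 16.1-fold below DTEP. Without DTEP replicate 3, the lowest, DTEP was 45.6-fold below DTP (log2 change -5.15) and LR 33.1-fold below DTEP.

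MUC5B, the major gel-forming mucin of airway mucus, was lost earlier. Control libraries held 78.4, 65.3 and 75.7, against 0.731, 0.888 and 0.749 in DTP. The level was thus 92.7-fold lower by day 9 (log2 change -5.37, SE 0.37), when MUC6 was still at a mean of 147. Later values stayed low and scattered, at 2.44, 0.783 and 2.47 in DTEP and 0.211, 1.22 and 2.96 in LR. The DTP, DTEP and LR groups overlapped, so no order among them could be read. MUC5B ended 50.04-fold below Control in LR (-5.07, SE 0.37), or 102-fold without LR replicate 3, the highest of its group. In its transcript 29.2% of the 50-base windows occur more than once, which limits how reads can be placed, and 1.93% also occur in the antisense gene MUC5B-AS1.

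MUC5AC, a gel-forming mucin of the stomach and airway surface, was low in Control and then not detected. It had 27, 26 and 27 reads in Control (1.24, 1.41 and 1.26 normalised read counts) and 0 reads in all 9 treated libraries. Against the limit of 3 reads in a library, it was at least 7.55-fold lower in DTP, 7.75-fold lower in DTEP and 7.86-fold lower in LR. Its log2 change with 1 added was only -1.20, so it was not called. MUC2, the gel-forming mucin of the intestine, stayed near the detection limit and was not tested. The Control libraries had 2, 4 and 2 reads, those of DTP 2, 0 and 0, those of DTEP 6, 13 and 6, and those of LR 5, 1 and 5. The DTEP libraries were the highest and did not overlap those of any other group.

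MUC1 followed another course from the gel-forming mucins. Its Control libraries held 36.8, 34.5 and 39.2, and those of DTP 35.4, 30.1 and 26.9, which overlapped. In DTEP the values were 4.64, 1.77 and 3.42, and in LR 2.20, 2.49 and 1.41. MUC1 was 9.39-fold lower in DTEP than in DTP (log2 change -2.94, SE 0.25), and DTEP and LR overlapped (-0.46, SE 0.25). Its step came after day 9, where the change from Control had been -0.26 (SE 0.25). By month 9 it was 18.1-fold below Control (-3.66, SE 0.25).

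MUC20, a membrane mucin known to bind the MET receptor, was the only one of the 5 tested members whose later groups stood above Control. Control libraries held 16.4, 17.7 and 18.7, DTP 66.4, 59.3 and 47.5, DTEP 24.7, 20.1 and 33.1, and LR 49.0, 49.6 and 49.6. The order was DTP, LR, DTEP and Control, and DTP and LR were the only neighbours in it that overlapped. Compared with Control it was 3.28-fold higher in DTP (1.65, SE 0.18), 1.48-fold higher in DTEP (0.51, SE 0.18) and 2.80-fold higher in LR (1.44, SE 0.18). None of these passed the cut-off of 2 on the log2 scale. Without DTEP replicate 3, MUC20 was 1.27-fold higher in DTEP than in Control. A share of 75.7% of the 50-base windows of the MUC20 transcript also occurs in transcripts of MUC20-OT1 (37.2%) or MUC20P1 (53.6%). Neither of these is listed under that name in the table, so the MUC20 level may include their reads and is uncertain.

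The other membrane mucins were at or near 0. MUC4 had 5 reads in all 12 libraries together, MUC13 had 3 and MUC15 had none. MUC16, which carries the CA125 antigen, had 0 to 4 reads in 11 libraries and 21 in DTEP replicate 3. Without that library its DTEP count was 0 and 1. No fold is given for these genes, and at this depth lower levels could not have been seen.

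**Figure D1:**
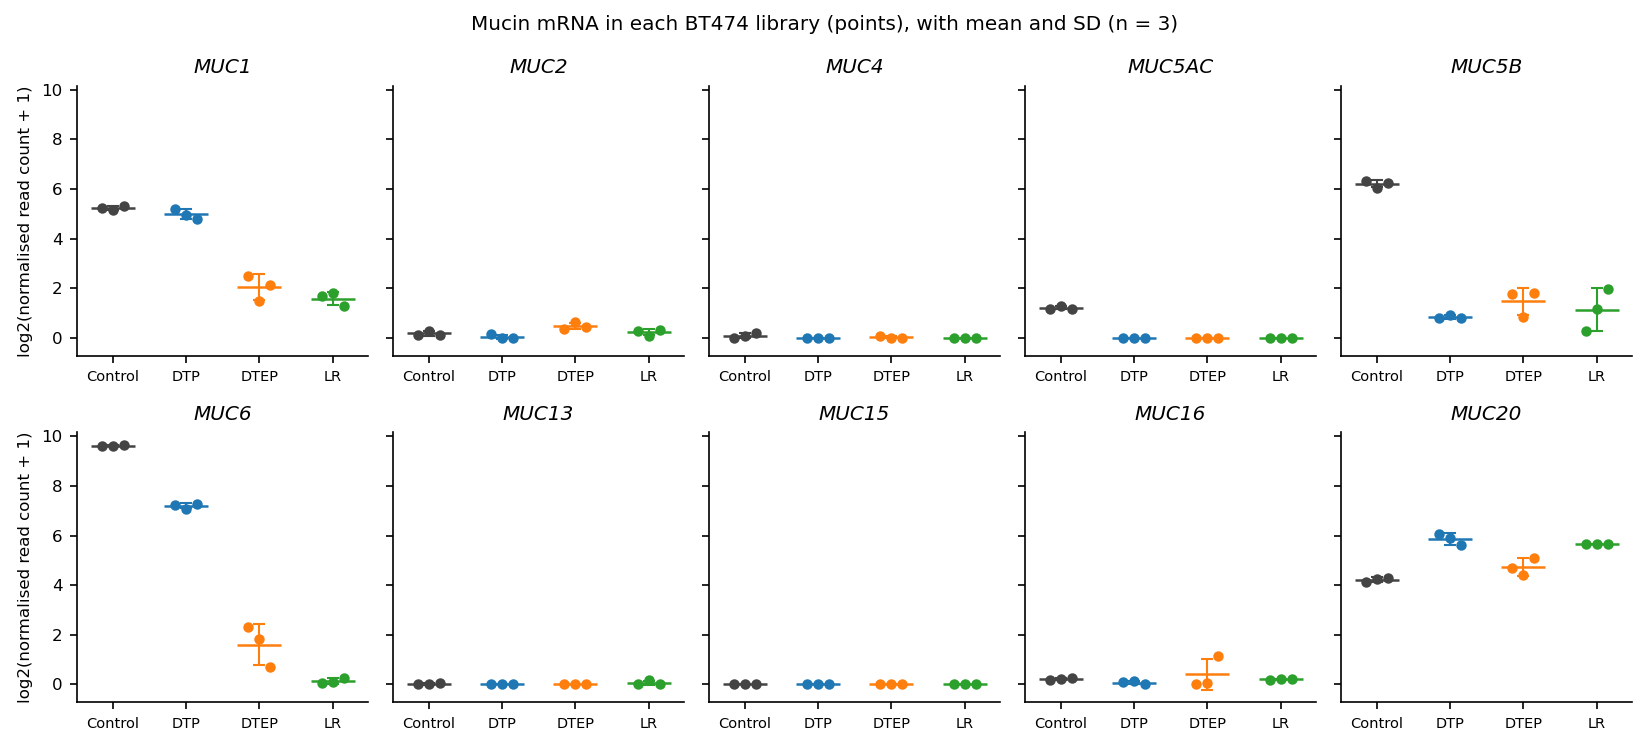
Each point is 1 library and each panel 1 mucin gene, on the log2 scale of normalised read counts with 1 added, with the group mean as a line and the SD as a bar (n = 3). MUC6 descends from Control to LR without overlap, MUC5B drops by DTP, MUC1 drops by DTEP, and MUC20 lies above Control in the 3 later groups.

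RefSeq promoter windows (GRCh38.p14, 250 bases before to 50 bases after the start) were found for 5 of the 10 genes, MUC1, MUC2, MUC4, MUC13 and MUC16. The windows of 3 are shown: MUC1, because it was read in every library, MUC4, because it is a membrane mucin that was hardly read, and MUC2, because it is the only member of the 11p15 cluster with an entry. Capitals mark matches on either strand. The box that positions the polymerase was searched as TATAAA. The GC box bound by SP1 was searched as GGGCGG, and neighbouring matches of it overlap. For the element of STAT factors the letters were TTCNNNGAA. The half-site of nuclear receptors was AGGTCA. The remaining motifs were the E-box CACGTG and, for nuclear factor Y, the box with the letters CCAAT. MUC1 lies at chr1:155192866-155193165 on the minus strand, MUC4 at chr3:195811880-195812179 on the minus strand and MUC2 at chr11:1074624-1074923 on the plus strand.
MUC1: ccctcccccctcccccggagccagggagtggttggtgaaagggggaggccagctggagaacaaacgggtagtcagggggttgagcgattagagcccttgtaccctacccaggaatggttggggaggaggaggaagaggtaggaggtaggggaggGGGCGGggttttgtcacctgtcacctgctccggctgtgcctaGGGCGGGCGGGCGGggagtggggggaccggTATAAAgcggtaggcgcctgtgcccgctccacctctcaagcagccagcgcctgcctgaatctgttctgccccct
MUC4: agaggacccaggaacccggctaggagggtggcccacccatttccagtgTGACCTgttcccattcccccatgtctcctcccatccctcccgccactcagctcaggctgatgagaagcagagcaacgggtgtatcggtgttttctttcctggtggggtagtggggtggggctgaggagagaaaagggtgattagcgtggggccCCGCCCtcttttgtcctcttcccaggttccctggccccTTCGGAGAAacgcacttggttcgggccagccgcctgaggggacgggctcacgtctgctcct
MUC2: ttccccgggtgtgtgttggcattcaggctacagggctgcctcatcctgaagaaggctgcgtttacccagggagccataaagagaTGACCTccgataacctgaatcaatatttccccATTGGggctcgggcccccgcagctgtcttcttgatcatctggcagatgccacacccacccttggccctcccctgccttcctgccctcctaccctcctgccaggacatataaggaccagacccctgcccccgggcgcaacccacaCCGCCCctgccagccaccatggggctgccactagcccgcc
The MUC1 window shown held a TATA box whose first base lay at -24 from the start, and GC boxes at -96, -54, -50 and -46. A second MUC1 entry, at chr1:155192860-155193159, puts the TATA box at -30 and the GC boxes at -102, -60, -56 and -52. The MUC4 window held a half-site at -202, a GC box at -49 and a STAT element at -11. The MUC2 window held a half-site at -166, a CCAAT match at -134 and a GC box at 11. Among all 35116 promoter windows of the table, 11.5% held the TATA box, 45.0% the GC box, 34.6% CCAAT, 13.8% the half-site, 7.66% the STAT element and 7.26% the E-box. A match describes letters and is not a binding site.

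The 5 members tested were MUC6, MUC5B, MUC5AC, MUC1 and MUC20, since MUC2, MUC4, MUC13, MUC15 and MUC16 did not reach a value of 1 in 3 libraries. MUC5AC reached it only through its Control libraries. A call needed both a limma adjusted p under 0.05 and a log2 change past 2 in either direction. In DTP against Control, 2 of the 5 were called lower (MUC6 and MUC5B) and 0 higher, where 3.9% of all 13794 tested genes were called lower and 1.01% higher. From DTP to DTEP, 2 were called lower (MUC6 and MUC1) and 0 higher, beside 7.02% lower and 8.13% higher over all genes. In LR against DTEP limma called none, beside 0.457% lower and 0.225% higher. On the recovered reads edgeR and DESeq2 each called MUC6 lower there, where edgeR called 3.7% of all genes lower and 0.515% higher and DESeq2 4.53% lower and 0.545% higher. Against Control, MUC6, MUC5B and MUC1 were called lower in DTEP, beside 6.2% lower and 4.43% higher over all genes. The same 3 were called lower in LR, beside 7.8% lower and 5.03% higher. The comparisons with Control share its libraries. Since the members were chosen on these contrasts, nothing is read from the shares.

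**Figure D2:**
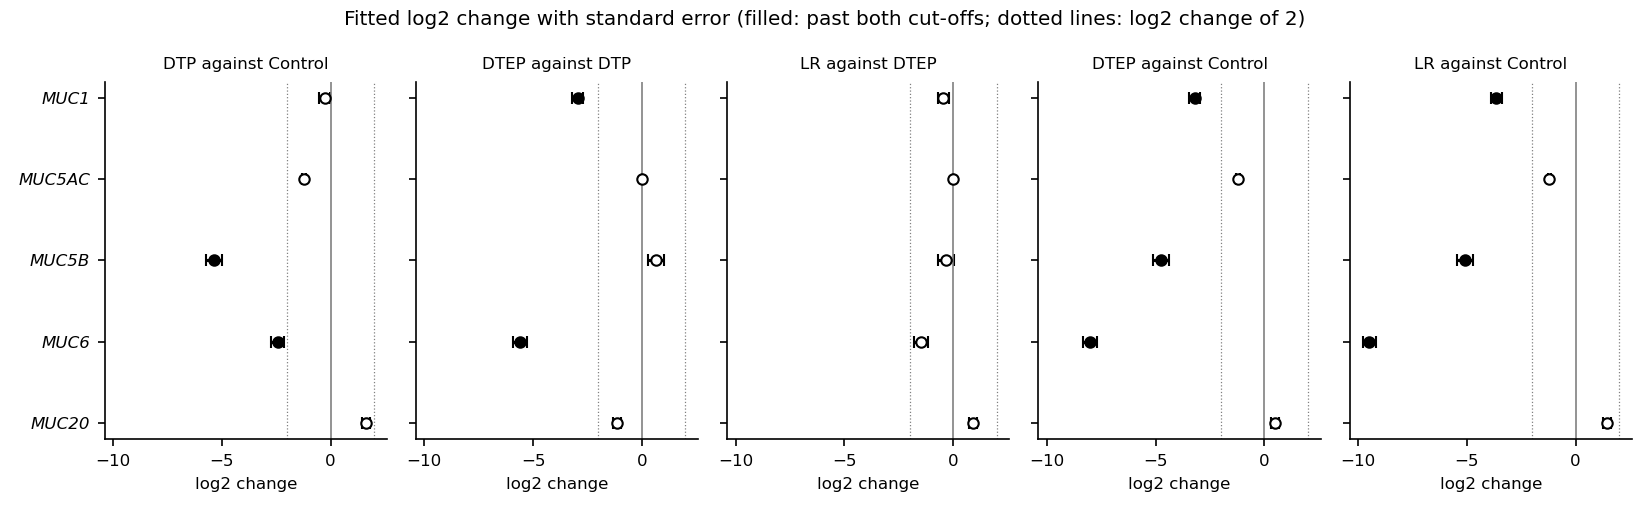
The fitted log2 change of each tested mucin (horizontal axis) with its SE, 1 panel per comparison, with filled points past both cut-offs and dotted lines at a log2 change of 2 in either direction. MUC6 and MUC5B are filled in DTP against Control, MUC6 and MUC1 in DTEP against DTP, and none in LR against DTEP.

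Levels of different genes can be compared only per length. Per kb of GENCODE exon, the sum over the 10 genes was 115 ± 3.38 for Control, 38.7 ± 3.30 for DTP, 5.59 ± 1.33 for DTEP and 8.19 ± 0.195 for LR, as normalised read counts per kb (SD, n = 3). MUC6 made up 81.0% of that sum in Control, and its share shrank to 45.1% by DTP, 5.33% by DTEP and 0.142% by LR. The share of MUC1 was 13.3% before treatment, then 33.1% (DTP), 23.8% (DTEP) and 10.3% (LR). MUC20 went the other way, from 2.23% in Control through 21.8% in DTP and 68.4% in DTEP to 88.3% in LR, with the doubt about its reads given above. MUC6 thus led before treatment and MUC20 led in DTEP and LR, in all 3 libraries of each of those groups.

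**Figure D3:**
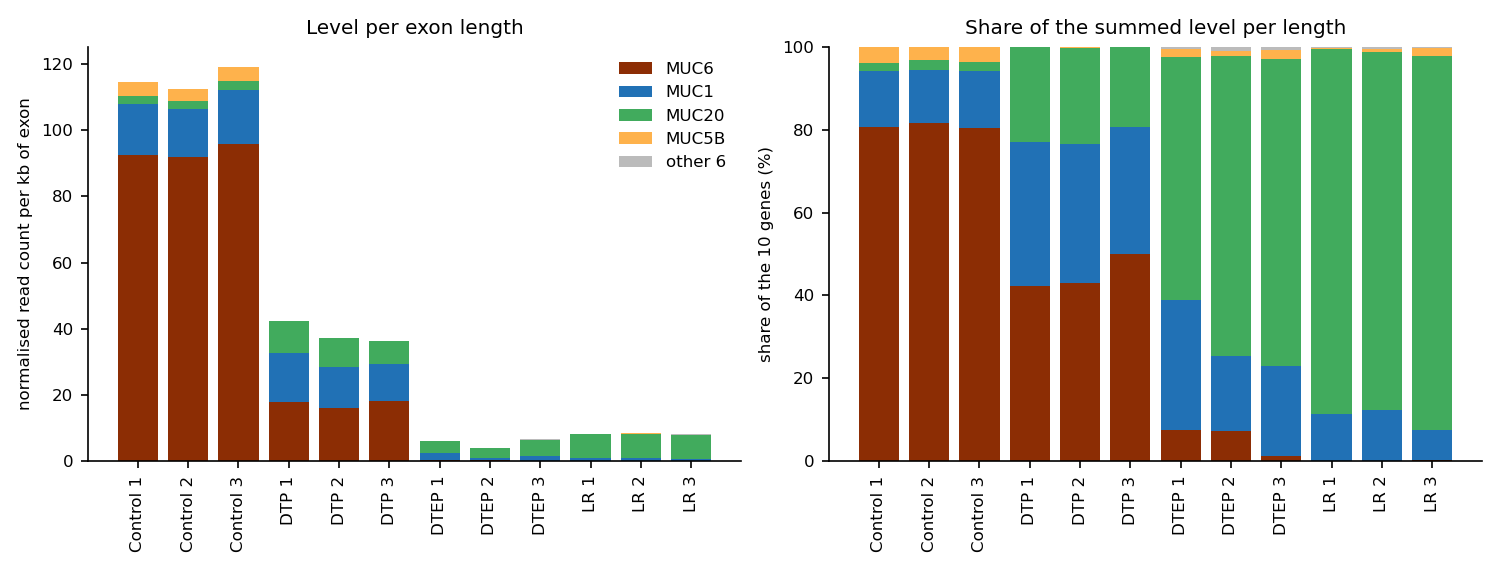
Stacked bars give, for each library, the normalised read count per kb of exon (left) and its share of the 10 genes in percent (right) for MUC6, MUC1, MUC20, MUC5B and the other 6. The bars shrink from a mean of 115 in Control to 5.59 in DTEP, and MUC20 fills 86.3% to 90.2% of the LR bars.

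Some of the mucin genes are neighbours. On 11p15, MUC6 (chr11:1012823-1036718), MUC2 (chr11:1074874-1110508), MUC5AC (chr11:1157953-1201138) and MUC5B (chr11:1223066-1262172) lie side by side in hg38. On 3q29, MUC20 (chr3:195720978-195733551) and MUC4 (chr3:195746771-195811929) are adjacent. Of the 10 nearest tested genes around the 11p15 cluster, limma called none in DTP against Control, where 4 had an unadjusted p under 0.05 and edgeR and DESeq2 each called 1. Their log2 changes there ran from -1.80 (KRTAP5-AS1) to 1.46 (MOB2), with a median of 0.25. The nearest genes on either side were AP2A2, an adaptor subunit of endocytosis 0.6 kb from MUC6, at 0.52 (SE 0.14, limma adjusted p = 0.00885), and TOLLIP, a regulator of Toll-like receptor signalling 12.2 kb from MUC5B, at 0.24 (SE 0.17, limma adjusted p = 0.247). From DTP to DTEP only KRTAP5-AS1 was called (-2.13, SE 0.21, limma adjusted p = 3.03e-06), while AP2A2 was at -0.98 and TOLLIP at -0.23. By limma adjusted p under 0.05 alone, 4 of the 10 were higher and 5 lower in that step. KRTAP5-AS1 was also called lower against Control in DTEP (-3.93, SE 0.21) and in LR (-3.78, SE 0.21). In LR against DTEP limma, edgeR and DESeq2 called 0 (4 had an unadjusted p under 0.05), and CHID1, TSPAN4, POLR2L, CD151, TOLLIP-AS1 and DUSP8 were not called by limma in any of the 3 steps.

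**Figure D4:**
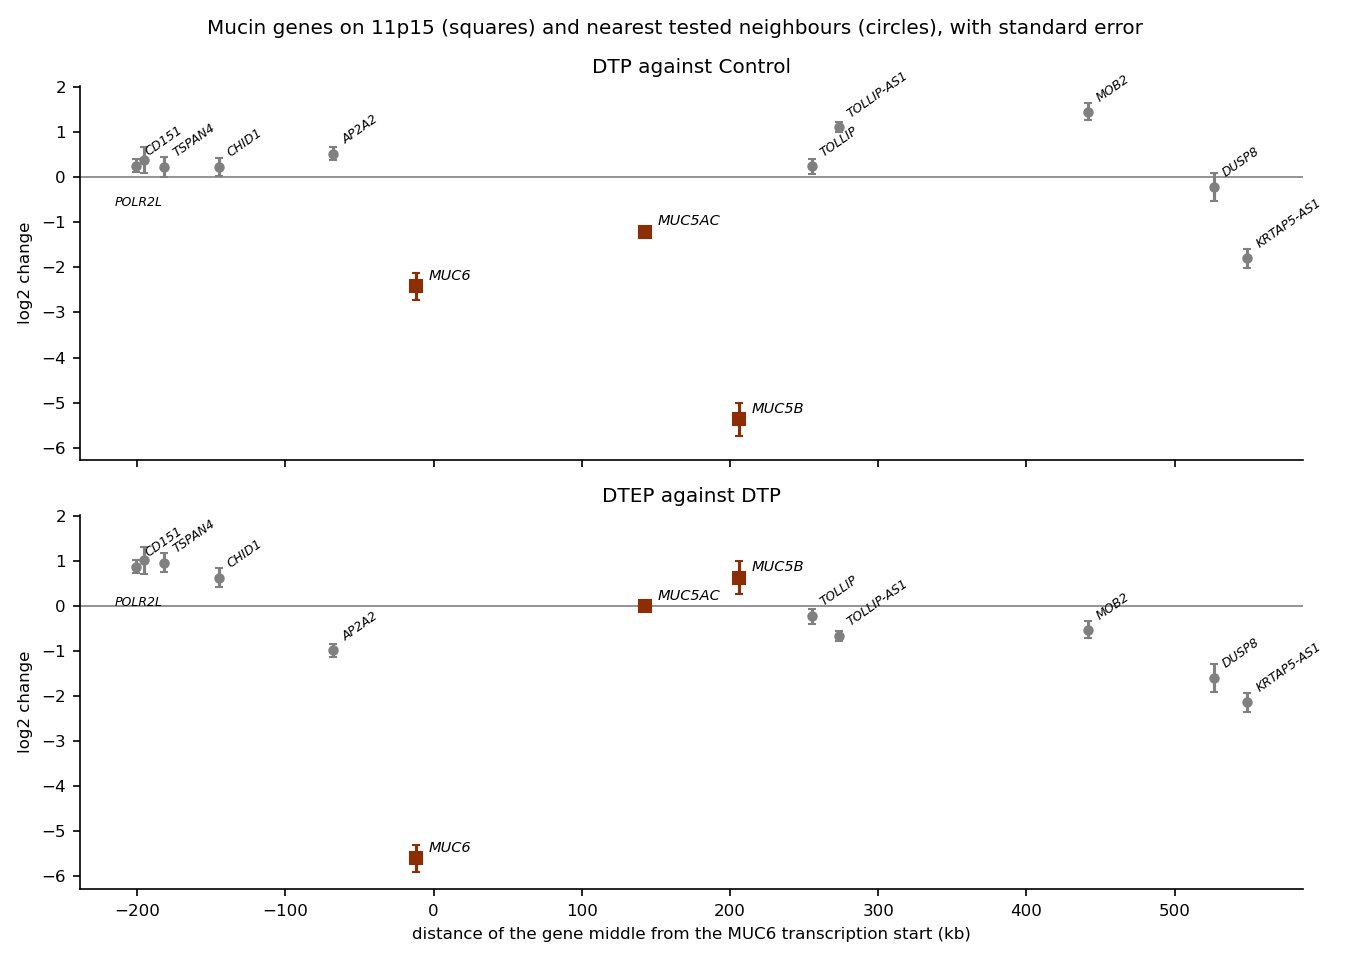
Log2 change with SE against distance in kb from the MUC6 start, for 3 mucins (squares) and the 10 nearest tested genes (circles), in DTP against Control and in DTEP against DTP. MUC6 and MUC5B lie below every neighbour in the upper panel, and MUC6 alone does so in the lower one, where MUC5AC had 0 reads in both groups and is drawn at 0.

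Around MUC20 and MUC4 on 3q29, 1 of 10 neighbours was called in DTP against Control, ACAP2 (-2.06, SE 0.30, limma adjusted p = 0.000142). That call was lost without Control replicate 2, without DTP replicate 1 and with DESeq2. In DTEP against DTP, TNK2, a kinase of the ACK family, was called higher (2.78, SE 0.19, limma adjusted p = 1.39e-07), from 34.1 ± 6.71 in DTP to 241 ± 58.9 in DTEP (SD, n = 3). ACAP2 (2.03) and PCYT1A, an enzyme of phosphatidylcholine synthesis (2.05), were called higher and LINC00885 lower (-2.79). By limma adjusted p under 0.05 alone, 7 of the 10 were higher and 2 lower in that step. ACAP2 and PCYT1A stood just past the cut-off, and with KRTAP5-AS1 the 5 calls around both clusters became 3 when DTP replicate 1, DTP replicate 2, DTEP replicate 2 or DTEP replicate 3 was left out. MIR570, SDHAP2, PPP1R2, XXYLT1, SDHAP1 and TFRC were not called in any step, and none of the 10 was called in LR against DTEP by limma, edgeR or DESeq2 (4 had an unadjusted p under 0.05). MUC20 itself was lower in DTEP than in DTP (-1.14).

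Other mucin genes that were not in the list were read as a group of 14, of which 6 were tested. In DTP against Control, 2 were called lower and 0 higher, while 4 were lower and 1 higher by limma adjusted p under 0.05 alone, with a median log2 change of -1.14 against -0.01 over all tested genes. MUC19, a further gel-forming mucin, held 107, 105 and 113 in Control and 9.97, 10.5 and 11.7 in DTP (-3.22, SE 0.31, limma adjusted p = 8.66e-06). MUCL1, a small secreted mucin of breast epithelium, held 176, 189 and 202 in Control and 45.4, 40.9 and 34.4 in DTP (-2.21, SE 0.79, limma adjusted p = 0.0319). Neither gene's groups overlapped. OVGP1, the oviductal glycoprotein, stood just inside the cut-off, at 8.23, 6.74 and 7.69 in Control and 35.3, 35.8 and 28.0 in DTP (1.99, SE 0.29, limma adjusted p = 0.00015). CD164, a sialomucin, had 895, 961 and 626 in Control and 218, 294 and 437 in DTP (-1.42, SE 0.30, limma adjusted p = 0.00175). Both were chosen after their values were seen. From DTP to DTEP 3 were called lower and 0 higher, while 5 were lower and 1 higher by adjusted p alone, with a group median of -2.06 against 0.08 over all genes. MUC19 reached 1.77, 2.43 and 0.730 (-2.20, SE 0.31, limma adjusted p = 4.76e-05), and MUCL1 reached 16.6, 3.13 and 0.730 (-3.03, SE 0.79, limma adjusted p = 0.00446). MCAM, an adhesion molecule also called MUC18, went from 14.2 ± 1.26 to 0.996 ± 0.985 (SD, n = 3) (-3.04, SE 0.28, limma adjusted p = 1.68e-06). Neither limma nor edgeR called any of the 6 in LR against DTEP, DESeq2 called 1 and 2 had an unadjusted limma p under 0.05, and MUCL1 held 1.61, 1.72 and 16.6.

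Mucins receive their first sugar from polypeptide GalNAc-transferases, of which 11 of 20 listed genes were tested. In DTP, 2 were called lower and 0 higher, while 6 were lower and 0 higher by limma adjusted p under 0.05 alone. GALNT7 went from 126 ± 9.79 to 14.2 ± 6.17 (SD, n = 3) (-3.13, SE 0.31, limma adjusted p = 1.04e-05), and GALNT12 from 7.80 ± 0.611 to 0.692 ± 0.248 (-2.39, SE 0.37, limma adjusted p = 0.000264). In DTEP against DTP, 3 were called higher and 1 lower (6 and 2 by adjusted p alone). GALNT14 stood at 0.574, 0.790 and 0.806 in DTP and at 143, 138 and 168 in DTEP (6.44, SE 0.20, limma adjusted p = 4.89e-10). GALNT7 reached 277 ± 113 (4.18, SE 0.31) and GALNT6 went from 38.1 ± 2.67 to 355 ± 21.2 (3.19, SE 0.13). The gene called lower was GALNT16 (-2.003, SE 0.17, limma adjusted p = 1.02e-06). The median of this list turned from -0.73 in DTP to 0.62 in DTEP, against -0.01 and 0.08 over all genes.

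Of 17 genes that extend or branch O-glycans, 10 were tested. GCNT1, which makes the core branch, fell in DTP (-2.28, SE 0.39, limma adjusted p = 0.000498) and again in DTEP (-2.14, SE 0.39, limma adjusted p = 0.000407), from 77.5 ± 6.15 in Control through 15.3 ± 2.81 to 2.66 ± 0.448 (SD, n = 3). B4GALNT3 rose in DTP (2.37, SE 0.37, limma adjusted p = 0.000238). By adjusted p alone 4 of the 10 were lower and 4 higher in DTP. Among 15 tested genes of mucin folding, packing and secretion, FCGBP, a mucus-bound protein, rose in DTP (2.05, SE 0.17, limma adjusted p = 2.90e-06). It was the only call there, while by adjusted p alone 3 were lower (AGR2, AGR3 and MARCKS) and 3 higher. AGR2, the mucin-folding enzyme, went from 542 ± 11.7 to 153 ± 7.49 (SD, n = 3) (-1.81, SE 0.39, limma adjusted p = 0.00198). It was not called and is named outside the rule given below. From DTP to DTEP 3 were called higher and 6 lower (3 and 9 by adjusted p alone), and the list median was -1.67. STXBP2, which helps granules fuse with the membrane, went from 0.502 ± 0.175 to 87.9 ± 7.58 (5.89, SE 0.18, limma adjusted p = 4.89e-10). TFF1, the trefoil peptide secreted with mucus, fell from 337, 312 and 217 to 49.5, 14.1 and 2.25 (-4.39, SE 0.73, limma adjusted p = 0.000188). AGR3, a relative of AGR2, went from 14.2 ± 1.06 to 0.203 ± 0.283 (-3.68, SE 0.17, limma adjusted p = 8.23e-09). TFF1 was also the only pathway gene called in LR against DTEP (-2.65, SE 0.73, limma adjusted p = 0.0488), and it lost that call when any 1 library other than DTEP replicate 3 was left out. Without DTEP replicate 3 there were 2 calls, 1 higher and 1 lower.

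Of 12 transcription factors of mucous and luminal cells, the 5 that were tested were SPDEF, FOXA1, KLF4, CREB3L1 and GATA6, and limma called none in any of the 5 comparisons. In the 3 successive steps 4, 2 and 1 of them had an unadjusted p under 0.05, and edgeR and DESeq2 called 0. By adjusted p alone 3 were lower in DTP and 2 higher in DTEP against DTP. The largest values among them in the first 2 steps were those of SPDEF, a driver of goblet cell differentiation, chosen after the values were seen. Its mean was 249 ± 17.1 in Control, then 128 ± 31.9 by DTP and 444 ± 107 by DTEP (SD, n = 3), log2 changes of -0.98 and 1.79. In DTEP the SPDEF mean was above that of Control, without a call, and MUC6, MUC5B and MUC1 were below theirs. A link between SPDEF and these mucins was not tested. Of 11 partners of membrane mucins, 10 were tested. EGFR fell in DTP (-2.36, SE 0.30, limma adjusted p = 6.29e-05), and 3 of the 10 were lower and 0 higher by adjusted p alone. In DTEP against DTP, GRB2, the adaptor that binds the MUC1 tail, rose (2.66, SE 0.15, limma adjusted p = 3.15e-08), while LGALS3, the galectin that binds MUC1 sugars (-2.97, SE 0.51, limma adjusted p = 0.000243), SRC (-2.89, SE 0.18, limma adjusted p = 6.76e-08) and ERBB2, which encodes HER2 (-2.42, SE 0.23, limma adjusted p = 1.86e-06), fell. ERBB2 stood at 8545 ± 611 in DTP and 1627 ± 437 in DTEP, and the summed reads of its partner MUC4 were 0 and 1 in those groups.

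Over the 6 groups of genes together, 8 of 57 tested genes were called in DTP against Control (2 higher, 6 lower), 21 in DTEP against DTP (7 higher, 14 lower) and 1 in LR against DTEP. By limma adjusted p under 0.05 alone, 8 were higher and 23 lower in the first step, 18 and 23 in the second, and 2 and 4 in the third. The share of all genes at that cut-off is not given, so nothing is read from these counts. Medians over the 57 were -0.40, 0.12 and 0.01, beside -0.01, 0.08 and -0.07 over all tested genes.

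**Figure D5:**
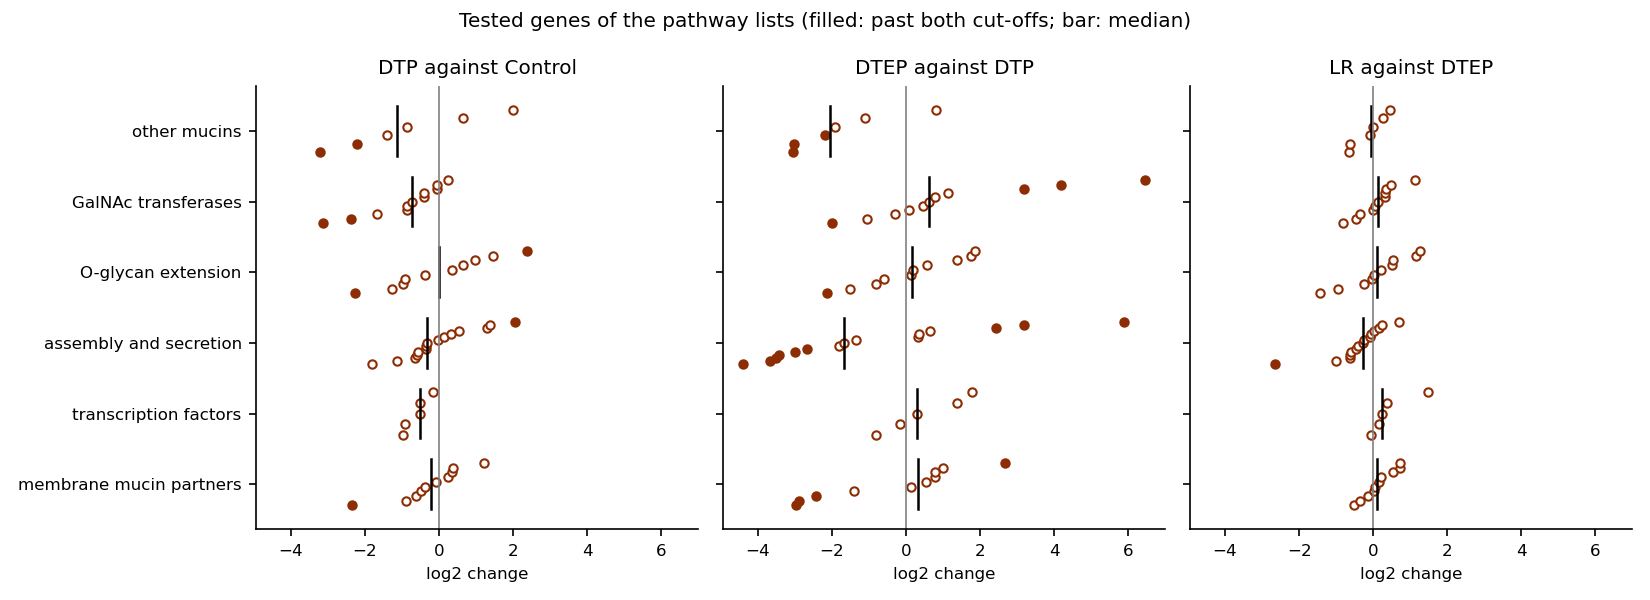
Each circle is a tested gene of a mucin-related group, placed by its log2 change, in the 3 successive comparisons, with filled circles past both cut-offs and a bar at the group median. The mucins outside the list lie mostly to the left in the first 2 panels, the GalNAc-transferases have 3 filled circles on the right in DTEP against DTP, and 1 circle (TFF1) is filled in LR against DTEP.

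For the 4 members with a group mean of at least 5, the tested genes with the most similar course were taken by Pearson's r of log2(value + 1) over the 12 libraries, which fall into 4 groups and share their normalisation. These are the highest of all tested genes and are a description only. For MUC6 they were FAM114A1 (r = 0.999), KCNQ1OT1 (0.999), a long noncoding RNA also on 11p15, and PLA2R1 (0.998). KCNQ1OT1 held 55.5 ± 2.10 in Control, 16.3 ± 1.44 in DTP and 0.777 ± 0.662 in DTEP, and 1 read in the 3 LR libraries together. For MUC1 they were the GalNAc-transferase gene GALNT16 (0.994), CIZ1 (0.991) and PARVB (0.991). GALNT16 had a mean of 5.27 ± 0.109 before treatment, then 5.01 ± 0.280 by DTP, 0.527 ± 0.373 by DTEP and 0.190 ± 0.171 by LR (SD, n = 3). For MUC5B they were LINC00514 (0.990), LYPD5 (0.986) and FANCC (0.970), and for MUC20 TTLL1 (0.978), CRY2 (0.976) and GTF2IRD2 (0.973).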

How the data were processed

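Stranded mRNA libraries of BT474 cells were sequenced. The authors used Rsubread to align to hg38 and to count on RefSeq genes, at default settings that ignore the strand. The deposited table holds a normalised signal, which equals CPM of a TMM-scaled library size. All 199680 values above 0 were whole multiples of 1 read (within 0.01), so reads were recovered. Depth was 16383363 to 25030482 reads per library, and limits at 0 reads cover counting error only.

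The 13794 genes that reached a value of 1 in 3 or more libraries were fitted with limma 3.58.1 in R 4.3.3 on log2(value + 1), all 12 libraries together, with an intensity trend and no covariates. A log2 change on this scale understates the change of low genes. Tests were two-sided, with Benjamini-Hochberg adjustment over the genes of each of 5 comparisons. Calls needed an adjusted p under 0.05 and a log2 change past 2 in either direction. On simulated data, 200 of 200 changed genes were recovered among 13382 for DTP against Control, with 0 false calls. For LR against DTEP 0 genes were changed there and 0 were called. The size and spread set for the changed genes are not given, so nothing is read from this for low genes or small changes. edgeR 4.0.16 and DESeq2 1.42.0 on the recovered reads were alternatives. Lengths are GENCODE v44 exon unions, used in place of the planned RefSeq exons. GALNT17 was not matched to the table.

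The members and gene lists were chosen with earlier results of these data known. Named are all members, up to 3 called genes per list and step with the largest absolute log2 change, 5 tested neighbours on each side of both clusters, ERBB2, and the 3 genes most correlated with each member whose highest group mean is at least 5. Some genes are named outside this rule, among them AGR2, OVGP1, CD164 and SPDEF, which were not called in the steps described, and markers of cell types.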

Additional observations from a re-analysis of the deposited data

How the results depend on the processing

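The counts of called members were 2, 2, 0, 3 and 3 in DTP against Control, DTEP against DTP, LR against DTEP, DTEP against Control and LR against Control, and leaving out any 1 library gave 2 to 2, 2 to 2, 0 to 0, 3 to 3 and 3 to 3. In LR against DTEP the count was 1 with a pseudocount of 0.1 or 0.5, with edgeR, with DESeq2 and at an absolute log2 change above 1, each time MUC6. At that last cut-off it was 4 in DTP against Control and 5 in LR against Control. MUC20 was called higher in both (1.65 and 1.44) and the other members called were lower. At the same cut-off MUC6, MUC1 and MUC20 were called lower from DTP to DTEP, and MUC6, MUC5B, MUC5AC and MUC1 in DTEP against Control. The share of all genes past that cut-off is not given, so nothing is read from counts there, for members, pathway genes or neighbours. MUC5AC, which passed the filter only through its Control libraries, was past both cut-offs against Control in all 3 later groups with a pseudocount of 0.1 (log2 change -3.81), by edgeR and by DESeq2, and nothing is read from these calls. MUC5B in LR against DTEP ranged from -0.76 to 0.10 with 1 library left out, changing sign without LR replicate 1, and was never called.

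The replicate numbers were not used to pair the libraries, since no comparison had every same-numbered pair correlated above 0.1. In DTEP against DTP the correlations were 0.359, -0.0046 and 0.335 for replicates 1, 2 and 3, so some pairing could still be present. With the replicate number as a block, the member counts were 2, 2, 0, 3 and 3, and the pathway counts 8, 21 and 0.

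Pathway genes called numbered 17 and 36 in the first 2 steps at an absolute log2 change above 1, and 6 to 8 and 20 to 23 with 1 library left out. In LR against DTEP (1 gene) the count was 2 with a pseudocount of 0.1 and with edgeR, 4 with DESeq2 and at an absolute log2 change above 1, 0 with no filter, with no trend and with only the 6 libraries compared, and 0 to 2 with 1 library left out. The neighbour alternatives were chosen after seeing the data. Of the 20 neighbours, 1 was called in DTP against Control, 2 with a pseudocount of 0.1 and with edgeR, 6 at an absolute log2 change above 1, and 0 to 1 with 1 library left out. In DTEP against DTP 5 were called, 3 with median-of-ratios scaling and with DESeq2, 9 at an absolute log2 change above 1, and 3 to 5 with 1 library left out. Median-of-ratios scaling shifted the median of all genes by -0.10 in DTEP against DTP. With the longest transcript as the length, the shares in Control were 77.9% (MUC6), 16.1% (MUC1) and 2.76% (MUC20), and in DTP 39.3%, 36.3% and 24.4%. Over all tested genes edgeR called 1270, 3288 and 581 in the 3 successive steps, against 678, 2091 and 94. Depth limits MUC2, MUC4, MUC13, MUC15 and MUC16 in every group, MUC5AC after treatment and MUC6 in LR.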
